A study of Arabidopsis thaliana with 6 samples.

Results

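SHORT-ROOT (SHR), SCARECROW (SCR), the genes they work with and the endodermis genes downstream of them were followed in Arabidopsis thaliana callus. The set holds 10 genes, taken by locus code from a table of 31305 loci, and each of the 10 codes was found in the table. Callus is unorganised tissue that grows from explants when auxin and cytokinin are supplied. Hypocotyls of 1-week-old seedlings had been cut and kept for 7 days on callus-inducing medium before RNA was taken for bulk sequencing. One genotype was the wild type Col-0, and the other was labelled rap2.12-2, an allele of RAP2.12, which encodes an ethylene response factor that is stable when oxygen is low. There were 3 libraries of each genotype, which the series calls biological replicates. Whether they came from separate plates or plant batches is not stated, so the spread between them may be partly technical. The kind of allele is not given in the sources used here. RAP2.12 transcript was higher in the libraries labelled rap2.12-2 (360, 363 and 465 TPM) than in Col-0 (123, 140 and 161 TPM), with a log2 fold change of 1.48 (SE 0.17, limma adjusted p = 0.026). Directions below are therefore given for the libraries labelled rap2.12-2. Whether RAP2.12 function was lost or gained in them was not tested.

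In the root, SHR protein is made in the stele and moves into the neighbouring layer, where it meets SCR. SCR and zinc finger proteins of the INDETERMINATE DOMAIN (IDD) family, known as BIRD proteins, hold SHR in the nucleus there, and the complex switches on the cyclin gene CYCD6;1 for the formative division that separates endodermis from cortex. Cells that become endodermis later express MYB36, which turns on the genes of the Casparian strip, the lignin band that seals the layer, and then enzymes of suberin, the waxy polyester of older endodermis. Callus that forms on this medium is known to resemble the early lateral root.

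TPM is a level scaled to the library's total and already divided by transcript length, so levels of different genes can be set beside each other. Read totals are not in the table, so depth is unknown, and precision was judged by how far libraries of a genotype differ. Listed values summed to between 984523 and 992724 TPM in 5 libraries and to 845341 TPM in Col-0 replicate 1. Over the 18629 genes whose mean reached 1 TPM, called tested genes here, 43.0% had their lowest value in the library labelled rap2.12-2 replicate 1 and 35.0% in Col-0 replicate 1, against 4.9% to 6.9% in each of the other libraries. The root stem cell and callus markers PLT1, PLT2, WOX5, LBD16 and LBD18 were present, between 11.3 and 131 TPM in every library, and LBD29 was at 0.58 TPM or less. In bulk tissue, fewer cells of a type and less RNA per cell cannot be told apart.

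No gene of the set passed the test between the genotypes. Of the 10, 9 were tested, and limma called 0 of them higher and 0 lower at an adjusted p under 0.05. Of all tested genes 0.0698% were called. At an unadjusted p under 0.05, 1 of the 9 was higher (MGP) and 0 were lower, against 3.22% higher and 3.62% lower of all tested genes. MGP was also the 1 gene of the 9 whose groups did not overlap. Overlap was judged on TPM as listed, without bringing Col-0 replicate 1 to the total of the other libraries. Among all tested genes 6.62% had every library labelled rap2.12-2 above every Col-0 library. The median log2 fold change of the 9 was -0.15, against -0.02 over all tested genes, and 7 of the 9 were negative. That lean moved with single libraries: once the library labelled rap2.12-2 replicate 1 was left out, the median was 0.08 and 6 of 9 were positive, beside a median of 0.06 over all tested genes. It was -0.07 with 5 of 9 negative when Col-0 replicate 2 was left out, and -0.06 when Col-0 replicate 3 was. Scaling moved it as well. Organelle-encoded genes summed to 12005 TPM in Col-0 replicate 1 and to 157 to 537 TPM elsewhere. With them removed and each library rescaled to a common total, the median of the 9 was -0.23, beside -0.10 over all tested genes. That rescaling also evened out the low listed total of Col-0 replicate 1 (845341 TPM), and these steps were not run apart. Rescaling to nuclear protein-coding genes gave -0.24 beside -0.10, and quantile scaling gave -0.10 beside 0.0059.

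**Figure D1:**
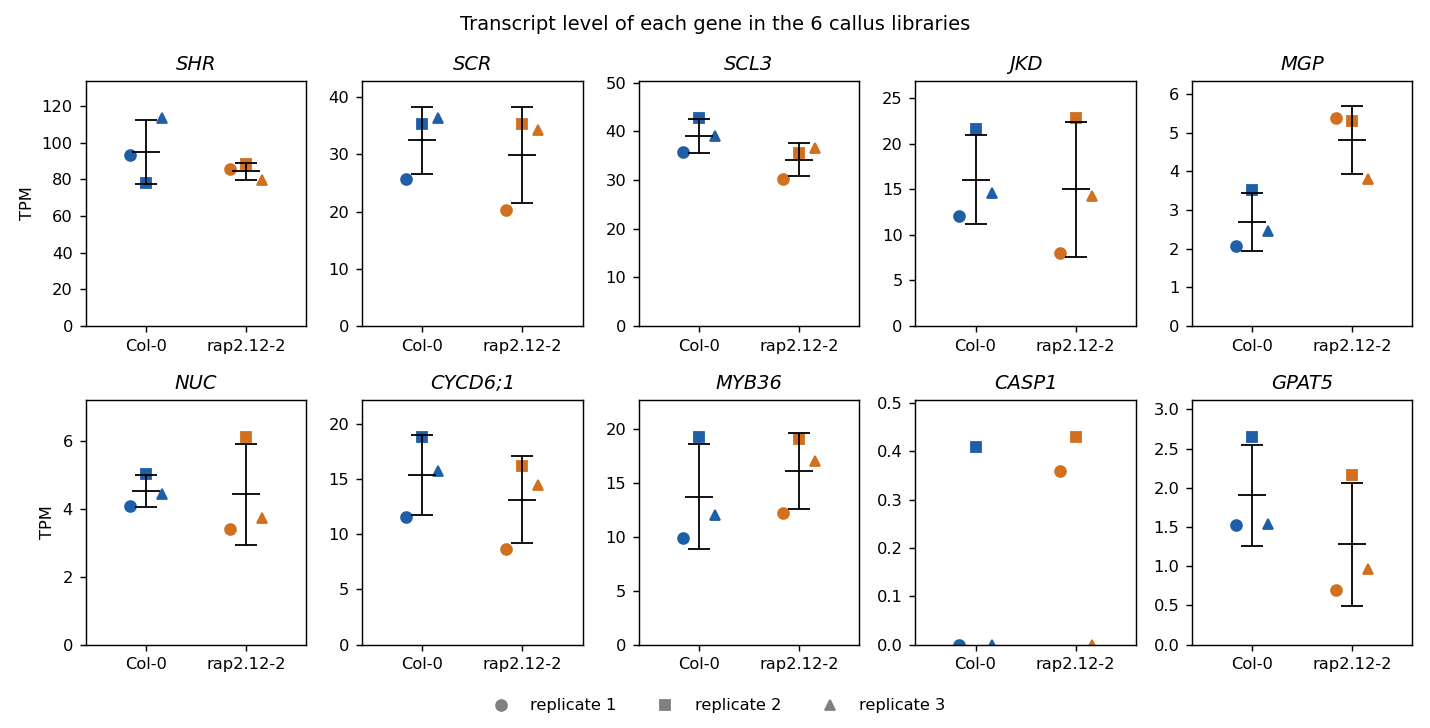
TPM of each of the 10 genes (vertical axes, starting at 0, each panel on its own scale) in Col-0 and in the libraries labelled rap2.12-2, with 1 point per library, its shape giving the replicate number, and bars for the mean and SD (n = 3). MGP is the panel in which the groups are apart, and CASP1, listed at 0 in 3 libraries, has no mean or SD drawn.

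SHR, the mobile GRAS-family factor at the head of the pathway, was the most abundant of the 10. SHR (AT4G37650, chromosome 4, 17691687 to 17693859, plus strand; coordinates are those of TAIR10.1 throughout) measured 93.2, 78.2 and 113 TPM across Col-0, against 85.4, 88.2 and 79.4 TPM under the rap2.12-2 label. Its highest and its lowest values were both in Col-0, so the groups overlapped. Mean SHR was 94.8 ± 17.6 TPM for Col-0 and 84.3 ± 4.47 TPM for the other genotype (SD, n = 3 each), and the log2 fold change was -0.15 (95% interval -0.53 to 0.23, limma adjusted p = 0.88). SHR varied least but for SCL3 among the 9 tested genes, with its highest library 1.45 times its lowest.

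SCR, the GRAS-family partner that keeps SHR in the nucleus and marks the endodermis and quiescent centre, was the third most abundant of the set. SCR (AT3G54220, chromosome 3, 20069987 to 20072878, plus strand) measured 25.7, 35.3 and 36.3 TPM across Col-0, against 20.2, 35.4 and 34.2 TPM under the rap2.12-2 label. Replicate 1 was the low library in each genotype, and the other 4 libraries lay within 34.2 to 36.3 TPM. The log2 fold change was -0.14 (95% interval -0.69 to 0.42, limma adjusted p = 0.92), and it was 0.11 when replicate 1 under the rap2.12-2 label was left out. SCL3, a GRAS protein encoded by a known target of SHR and SCR that counteracts DELLA repressors of gibberellin response, stood next to SCR in level. SCL3 (AT1G50420, chromosome 1, 18677694 to 18680300, minus strand) measured 35.7, 42.6 and 39.0 TPM across Col-0, against 30.3, 35.5 and 36.6 TPM under the rap2.12-2 label. Only the Col-0 library at 35.7 TPM fell within the range of the other group (log2 fold change -0.19, 95% interval -0.55 to 0.17, limma adjusted p = 0.87). It was replicate 1, whose listed values summed to 845341 TPM against 984523 TPM or more elsewhere. Whether the SCL3 groups overlap on a common total was not tested. SCL23, a close relative of SCR, was scarce, at 2.28 to 3.93 TPM over the 6 libraries (log2 fold change -0.05).

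MGP, the BIRD gene MAGPIE and a known direct target of SHR and SCR, was the member with the clearest separation. MGP (AT1G03840, chromosome 1, 967470 to 970334, minus strand) measured 2.08, 3.53 and 2.46 TPM across Col-0, against 5.37, 5.29 and 3.81 TPM under the rap2.12-2 label. Each library labelled rap2.12-2 lay above each Col-0 library. Mean MGP was 2.69 ± 0.75 TPM for Col-0 and 4.82 ± 0.88 TPM for the other genotype (SD, n = 3 each), so that their ratio was 1.79. The log2 fold change on the log2(TPM + 1) scale was 0.67 (SE 0.26, 95% interval 0.08 to 1.25). The unadjusted limma p was 0.029 and the limma adjusted p was 0.62, so MGP did not pass over all genes. The adjusted p ran from 0.35 to 0.93 over the alternatives in processing and left-out libraries. The log2 fold change ran from 0.47 to 0.84 over them. The unadjusted p rose above 0.05 when any of 4 single libraries was left out, namely replicates 1 and 3 of Col-0 and replicates 1 and 2 under the rap2.12-2 label. MGP alone of the 9 tested genes had its highest value in the library labelled rap2.12-2 replicate 1, where 18.4% of all tested genes were highest. In that library 6 of the 9 were lowest, beside 43.0% of all tested genes.

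The other BIRD genes of the set did not separate. JKD (AT5G03150, JACKDAW, chromosome 5, 745421 to 749028, plus strand), whose protein limits SHR movement and supports SCR expression, measured 12.1, 21.6 and 14.6 TPM across Col-0, against 8.01, 22.8 and 14.3 TPM under the rap2.12-2 label. Replicate 2 was the highest and replicate 1 the lowest library in each genotype, and the spread within a genotype was far wider than the gap between the means (16.1 ± 4.92 and 15.0 ± 7.41 TPM, SD, n = 3 each). The log2 fold change was -0.16 (95% interval -0.97 to 0.64, limma adjusted p = 0.94). NUC (AT5G44160, NUTCRACKER, chromosome 5, 17772856 to 17775749, plus strand), like MGP a known target of SHR, measured 4.07, 5.01 and 4.44 TPM across Col-0, against 3.41, 6.11 and 3.73 TPM under the rap2.12-2 label. The values of Col-0 lay wholly inside the range of the other group (log2 fold change -0.05, 95% interval -0.63 to 0.52, limma adjusted p = 0.97). In Col-0 every NUC value was above every MGP value, whereas in the libraries labelled rap2.12-2 the values of the 2 genes overlapped (4.42 ± 1.48 TPM for NUC and 4.82 ± 0.88 TPM for MGP, SD, n = 3 each).

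The 250 bases before the annotated transcript start of SCR are shown because they hold a match to the letters TTTGTC, the core of the sequence bound by maize ID1, the founder of the IDD family to which the BIRD proteins belong. The window (chr3:20069737-20069986, plus strand) is given 5′ to 3′ on the strand of the gene from the RefSeq TAIR10.1 genome and is intergenic in its annotation. The capitals mark TTTGTC, which starts 96 bases before the transcript start.
SCR: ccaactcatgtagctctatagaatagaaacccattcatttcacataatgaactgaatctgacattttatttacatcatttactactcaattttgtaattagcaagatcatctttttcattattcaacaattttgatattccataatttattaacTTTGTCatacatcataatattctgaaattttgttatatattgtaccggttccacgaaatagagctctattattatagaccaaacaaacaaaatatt

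Such windows were searched for 9 of the 10 genes. TTTGTC on either strand was found in 2 of the 9, those of SCR and GPAT5, and in 24.7% of the windows of the same length of 22787 protein-coding genes with a complete annotated transcript. A match describes letters only and is no measure of binding.

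CYCD6;1, the D-type cyclin that SHR and SCR switch on for the formative division, was present at an intermediate level. CYCD6;1 (AT4G03270, chromosome 4, 1431844 to 1433861, minus strand) measured 11.6, 18.9 and 15.8 TPM across Col-0, against 8.70, 16.3 and 14.5 TPM under the rap2.12-2 label. The groups overlapped, with replicate 1 lowest and replicate 2 highest in each genotype (log2 fold change -0.23, 95% interval -0.84 to 0.38, limma adjusted p = 0.89). Its annotated exons share 393 of 1610 bases (24.4%) with AT4G03260 on the opposite strand, which was listed at 31.3 to 65.5 TPM with its lowest value also in the library labelled rap2.12-2 replicate 1. Whether counting used the strand is not given in the sources used here, so reads from the shared bases may belong to either gene.

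**Figure D2:**
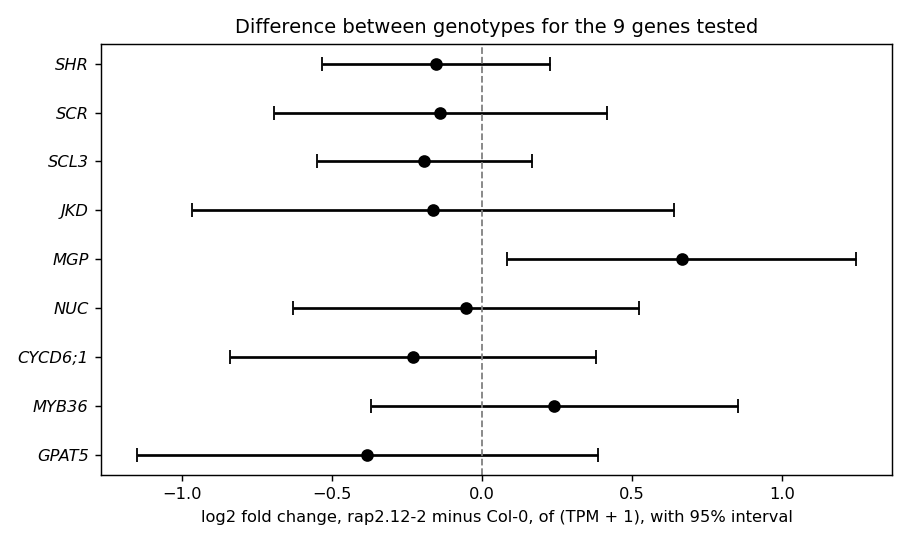
Log2 fold change of (TPM + 1), libraries labelled rap2.12-2 minus Col-0 (horizontal axis), for the 9 tested genes, with points for limma's estimate and bars for its 95% interval (3 libraries per genotype). The bar of MGP, 0.08 to 1.25, is the one that does not cross 0, and it is not adjusted for the number of genes tested.

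Ratios within a library do not depend on how that library was scaled, and of the 5 tested only MGP to SHR had groups apart. SCR to SHR was 0.276, 0.452 and 0.320 across Col-0, against 0.237, 0.401 and 0.430 under the rap2.12-2 label, with overlapping groups. MGP to SHR was 0.022, 0.045 and 0.022 across Col-0, against 0.063, 0.060 and 0.048 under the rap2.12-2 label, with groups apart and geometric means that differed 2.02-fold. For MGP to SHR the two-sided exact permutation p was 0.10, the smallest that 3 against 3 allows, and 0.50 after Benjamini-Hochberg adjustment over the 5 ratios tested. CYCD6;1 to SCR was the steadiest of the 5 ratios, at 0.425 to 0.534 over the 6 libraries (exact permutation p = 0.40). SCR itself ran from 20.2 to 36.3 TPM. Both genes were lowest in the library labelled rap2.12-2 replicate 1, as were 43.0% of all tested genes. JKD to SHR ran from 0.094 to 0.276, and SCL3 to SCR from 1.00 to 1.496, and in each the groups overlapped (exact permutation p = 1.0 and 0.80). The ratio of CASP1 to MYB36 was not tested, since CASP1 was listed at 0 in 3 libraries.

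The library labelled rap2.12-2 replicate 1 held the lowest value of 6 of the 9 tested genes (SCR, SCL3, JKD, NUC, CYCD6;1 and GPAT5), beside 43.0% of all tested genes. The highest value was in Col-0 replicate 2 for 4 of the 9 (SCL3, CYCD6;1, MYB36 and GPAT5), beside 26.6% of all tested genes. SHR instead was lowest in Col-0 replicate 2. Deviations from a gene's own mean reached -0.80 for JKD and -0.62 for CYCD6;1 in replicate 1 under the rap2.12-2 label, and 0.60 for JKD in replicate 2 under it (log2 scale). The part of library quality in these deviations was not tested.

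**Figure D3:**
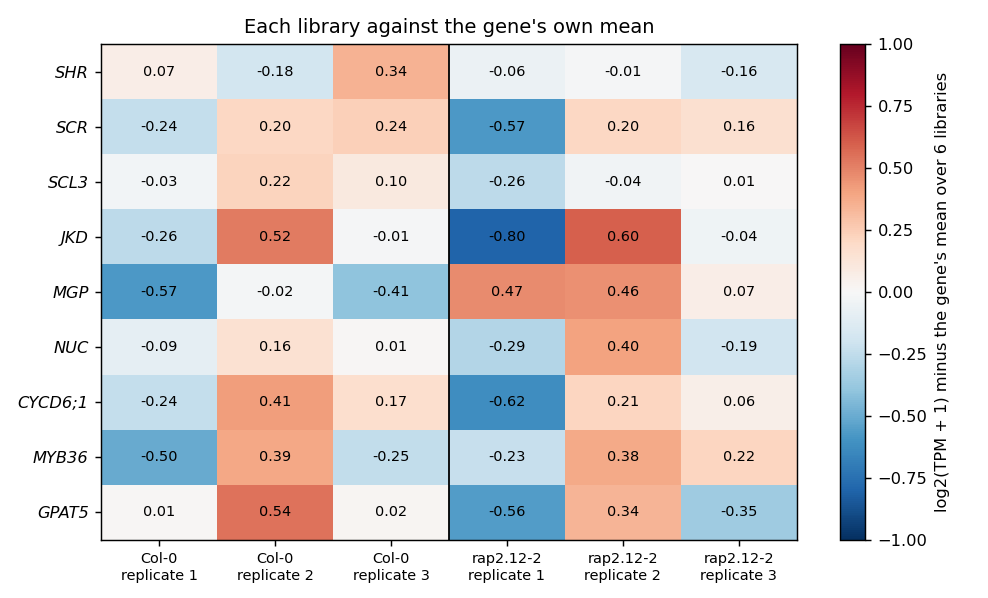
Deviation of each library from the gene's own mean over the 6 libraries, as log2(TPM + 1), for the 9 tested genes (rows) and the 6 libraries (columns, with a line between the genotypes). SCR, JKD, CYCD6;1 and GPAT5 are at -0.56 or lower in the library labelled rap2.12-2 replicate 1, where MGP is at 0.47.

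In order of mean level over the 6 libraries the genes ran from SHR (89.6 TPM) through SCL3 (36.6), SCR (31.2), JKD (15.5), MYB36 (14.9), CYCD6;1 (14.3), NUC (4.46), MGP (3.76) and GPAT5 (1.59) to CASP1 (0.20). Pooled over the 6 libraries, neighbours overlapped at every step but 3, those from SHR to SCL3, from CYCD6;1 to NUC and from GPAT5 to CASP1. Within a genotype 5 steps were apart, and these included the step down from SCR in each genotype, to JKD in Col-0 and to MYB36 under the rap2.12-2 label. JKD, MYB36 and CYCD6;1 overlapped with their neighbours in that trio within each genotype as well. SCL3 and SCR overlapped too, but within a library SCL3 was the higher in 6 of 6.

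Of the genes of endodermis differentiation, transcript of the regulator MYB36 was present and that of the CASP genes was nearly absent. MYB36 (AT5G57620, chromosome 5, 23334767 to 23336632, plus strand), the MYB factor that switches on Casparian strip genes, measured 9.91, 19.3 and 12.01 TPM across Col-0, against 12.2, 19.1 and 17.0 TPM under the rap2.12-2 label. The groups overlapped, and replicate 2 was the highest library in each genotype (log2 fold change 0.24, 95% interval -0.37 to 0.85, limma adjusted p = 0.89). CASP1 (AT2G36100, chromosome 2, 15159591 to 15160799, minus strand), a scaffold protein of the Casparian strip membrane domain and a target of MYB36, was listed at 0, 0.41 and 0 TPM across Col-0, against 0.36, 0.43 and 0 TPM under the rap2.12-2 label. At a mean of 0.20 TPM it was below the limit for testing, and no fold is given. Its exons share 49 of 904 bases with AT2G36090 on the opposite strand. The 5 CASP genes together summed to 0.18 to 0.47 TPM in the Col-0 libraries, against 0.30 to 1.13 TPM under the rap2.12-2 label, and CASP5 was listed at 0 in all 6. As defining endodermis markers, the CASP genes were thus at or near 0 while SCR and MYB36 were not.

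**Figure D4:**
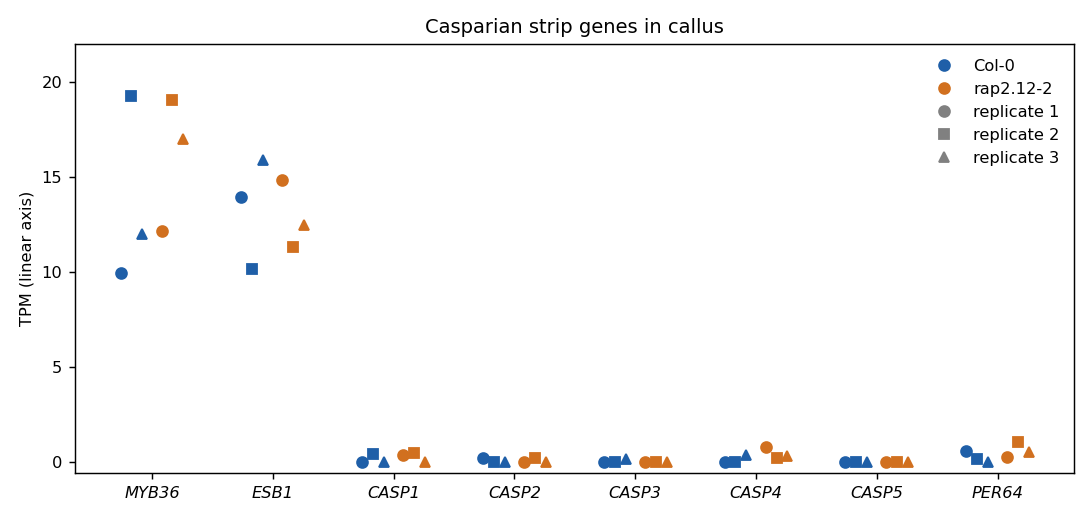
TPM (linear vertical axis) of MYB36, ESB1, the 5 CASP genes and PER64 in the 6 libraries, with 1 point per library, colour for genotype and shape for replicate number. MYB36 and ESB1 lie between 9.91 and 19.3 TPM, and no CASP gene is above 0.77 TPM.

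Of 14 further Casparian strip genes, 6 were tested, 0 were called higher or lower by limma, and 0 had an unadjusted p under 0.05. Their median log2 fold change was -0.06. ESB1, a dirigent-domain protein that builds the strip, lay above the CASP genes and PER64, at 13.3 ± 2.93 TPM for Col-0 against 12.9 ± 1.82 TPM under the rap2.12-2 label (SD, n = 3 each, log2 fold change -0.04). PER64, the peroxidase of strip lignification, was at 0 to 1.02 TPM. RBOHF, an NADPH oxidase, was in between at 2.38 to 9.65 TPM. Highest of the list were the exocyst subunit EXO70A1 at 49.6 ± 6.54 and 45.2 ± 8.59 TPM and the tyrosylprotein sulfotransferase TPST at 35.9 ± 3.80 and 31.4 ± 4.596 TPM (SD, n = 3 each). AT4G34600 and TPST had the smallest p of the list, with log2 fold changes of 0.36 and -0.19 (limma adjusted p = 0.87 for each).

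GPAT5, the acyltransferase of suberin synthesis, was detected at a low level in every library. GPAT5 (AT3G11430, chromosome 3, 3595694 to 3597952, plus strand) measured 1.52, 2.65 and 1.54 TPM across Col-0, against 0.70, 2.17 and 0.96 TPM under the rap2.12-2 label. Replicate 2 was the highest library in each genotype, and its value of 2.17 TPM lay within the Col-0 range (log2 fold change -0.38, 95% interval -1.15 to 0.38, limma adjusted p = 0.87). GPAT5 had the widest range of the 9 tested genes, with its highest library 3.79 times its lowest.

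Other suberin genes mostly lay lower in the libraries labelled rap2.12-2, without any passing the test. Of 20 further suberin genes, 15 were tested, 13 of these had a negative log2 fold change, against 53.3% of all tested genes, and their median was -0.42. limma called 0 of the 15 higher or lower. At an unadjusted p under 0.05, 2 were lower (ABCG20 and KCS2) and 1 was higher (MYB92), against 3.62% lower and 3.22% higher of all tested genes. In these 3 the groups did not overlap. Over all tested genes 6.03% had every library labelled rap2.12-2 below every Col-0 library, and 6.62% had every one above. The lean was smaller without either of 2 libraries. The median was -0.11 with 11 of 15 negative when replicate 1 under the rap2.12-2 label was left out, beside 0.06 over all tested genes. It was -0.15 with 9 of 15 negative without Col-0 replicate 2, beside 0.02. Without Col-0 replicate 3 it was -0.64, beside 0.01. The library labelled rap2.12-2 replicate 1 held the lowest value of 12 of the 15 genes, beside 43.0% of all tested genes. Col-0 replicate 2 held the highest value of 12 of the 15, beside 26.6%.

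ABCG20, a transporter of suberin precursors, measured 2.46, 2.80 and 1.75 TPM across Col-0, against 0.24, 0.91 and 0.98 TPM under the rap2.12-2 label (log2 fold change -0.98, 95% interval -1.70 to -0.27, limma adjusted p = 0.49). Each library labelled rap2.12-2 was below each Col-0 library. KCS2, an enzyme of very-long-chain fatty acid elongation that was singled out after its values were seen, measured 8.85, 16.5 and 10.9 TPM across Col-0, against 4.4, 7.74 and 6.82 TPM under the rap2.12-2 label (log2 fold change -0.82, limma adjusted p = 0.53). MYB92, a MYB factor that activates suberin genes, went the other way. MYB92 measured 23.3, 18.9 and 27.4 TPM across Col-0, against 36.1, 42.7 and 48.5 TPM under the rap2.12-2 label (ratio of means 1.83, log2 fold change 0.85, 95% interval 0.41 to 1.28, limma adjusted p = 0.30). The most abundant enzymes, KCS20 (25.3 ± 10.4 and 20.6 ± 5.55 TPM) and the feruloyl transferase ASFT (11.5 ± 4.69 and 8.29 ± 3.68 TPM), had overlapping groups (SD, n = 3 each).

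**Figure D5:**
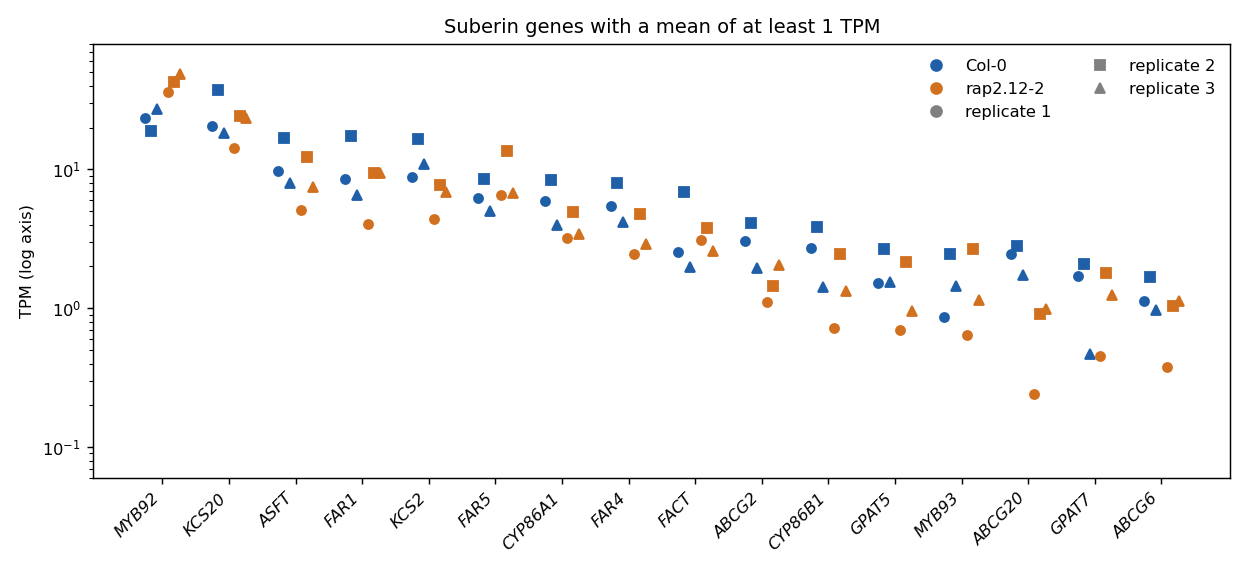
TPM (log vertical axis) of the 16 suberin genes that reached a mean of 1 TPM, GPAT5 among them, ordered by mean level, with 1 point per library, colour for genotype and shape for replicate number. MYB92 is the gene whose 3 libraries labelled rap2.12-2 (36.1 to 48.5 TPM) all lie above Col-0, and ABCG20 and KCS2 are those in which they all lie below.

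Relatives and partners of the set gave no call. Of 13 further IDD loci, 7 were tested, 0 were called, 0 had an unadjusted limma p under 0.05, and the median log2 fold change was -0.06. The most abundant was ENY (ENHYDROUS) at 59.2 ± 9.74 TPM for Col-0 against 56.8 ± 10.7 TPM under the rap2.12-2 label, above each BIRD gene of the set. IDD2 and IDD14 followed at a mean of 21.3 and 20.2 TPM over the 6 libraries. IDD11 (-0.44) and SGR5 (0.30), a factor of shoot gravitropism, had the smallest p (limma adjusted p = 0.88 and 0.89 for these log2 fold changes).

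All 12 partner genes were tested, and again 0 were called and 0 had an unadjusted limma p under 0.05 (median log2 fold change -0.08). Groups were apart upward in 1 (RGL2) and downward in 1 (WOX5), beside 6.62% and 6.03% of all tested genes. PHB, the HD-ZIP III factor whose domain is limited by microRNAs that SHR and SCR activate, was the most abundant at 294 ± 54.4 and 273 ± 60.0 TPM. SCZ (SCHIZORIZA), a regulator of root layer identity, measured 81.0 ± 12.2 and 67.4 ± 15.1 TPM, and RGA, a DELLA repressor, 37.1 ± 8.402 and 45.5 ± 6.76 TPM (SD, n = 3 each). RBR1, the retinoblastoma-related protein that binds SCR, measured 41.2, 48.7 and 44.1 TPM across Col-0, against 16.1, 47.2 and 40.3 TPM under the rap2.12-2 label. Its low value was again in replicate 1 of that label (log2 fold change -0.49, limma adjusted p = 0.85).

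Some markers of other cell types were present beside SCR and MYB36, and others were near or below the limit for testing. The procambium marker ATHB8 measured 68 to 176 TPM, with its lowest value in the library labelled rap2.12-2 replicate 1, the root cap marker SMB 54.8 to 96.0 TPM and the epidermis marker PDF1 7.05 to 25.96 TPM over the 6 libraries. The 8 loci of other cell types summed to 242 to 295 TPM for Col-0, against 146, 276 and 275 TPM under the rap2.12-2 label. ATHB8 and SMB made up most of each sum. Of the 7 tested, 0 were called. At an unadjusted limma p under 0.05 PDF1 was lower (log2 fold change -0.83, limma adjusted p = 0.66) and 0 were higher. Over all tested genes 3.62% were lower and 3.22% higher at that limit. The phloem marker APL had groups apart upward, at 4.91 ± 0.73 and 7.05 ± 0.78 TPM (SD, n = 3 each, limma adjusted p = 0.76), beside 6.62% of all tested genes. The part of cell make-up in the values of SCR, MYB36 or the suberin genes was not tested.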

How the data were processed

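RNA of callus was extracted with TransZol Up and made into libraries with a TruSeq kit, per the labels. The authors deposited 1 table of TPM (per transcript length and library total) with a row for each of 31305 loci and a column for each of 6 libraries. RSEM 1.3.1, STAR 2.7.10a and the build TAIR10 are listed, without roles, per the submitters' processing notes. Very abundant transcripts lower all other TPM of a library, and depth is unknown. Column names matched the sample titles.

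The 18629 genes whose mean over the 6 libraries reached 1 TPM were compared as log2(TPM + 1), a scale that understates changes of low genes, with limma 3.58.1 (R 4.3.3, mean-variance trend) and Benjamini-Hochberg adjustment over all of them at 0.05. Intervals are limma's 95% intervals, unadjusted. Locus names, positions and sequences come from RefSeq TAIR10.1, which is not stated to be the authors' annotation. In it 74 of 83 listed loci had the listed symbol, and the others carry its name or the locus code. Of each further list the called genes, the 3 highest by mean TPM and the 2 with the smallest p are named. Members and lists were chosen with earlier results of these data known. The alternatives tried were pseudocounts of 0.1 and 0.5, no minimum or one of 5 TPM, 4 other scalings, no variance trend, a replicate block, and left-out libraries. Medians of lists without single libraries were added after the data were seen. The upstream window of 1 gene is not reported here.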

Additional observations from a re-analysis of the deposited data

How the results depend on the processing

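limma called 0 of the members it tested under each of the 17 alternatives. SHR and SCL3 stayed negative and MGP and MYB36 positive in log2 fold change under every alternative that tested them, as did GPAT5 (negative). A minimum of 5 TPM left MGP, NUC and GPAT5 untested. SCR, JKD, NUC and CYCD6;1 changed sign in some: over single left-out libraries SCR ran from -0.29 to 0.11, JKD from -0.50 to 0.20, NUC from -0.27 to 0.078 and CYCD6;1 from -0.41 to 0.021. Without both replicates 1 JKD was at 0.0246 and NUC at 0.0204, and with quantile scaling NUC was at 0.0239. Over all tested genes 8 were called higher and 5 lower. These were 3 and 3 with no filter, 3 and 6 with median-of-ratios scaling, 2 and 3 with no variance trend, 0 and 0 without both replicates 1 (limma, 1215 genes at an unadjusted p under 0.05), and 2 to 19 higher and 2 to 6 lower over left-out libraries. The replicate block gave 2 and 2 and called 0 members. At an unadjusted limma p under 0.05 the block gave 1785 genes, against 1274 without it. Pairing by number was mixed, with correlations of same-numbered deviations of 0.20, 0.35 and -0.11. Correlations of unlike numbers ran from -0.34 to 0.23. The cause of these shifts was not tested. Low genes (MGP, NUC, GPAT5, CASP1) are those that unknown depth limits most.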

Other observations

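For SHR, SCR and JKD the tested genes with the most similar pattern over the 6 libraries were looked up, by the root mean square difference of log2(TPM + 1) after each gene was centred on its own mean. These were picked as the closest of 18629 genes, so small differences follow from the search itself. Closest to SHR was EMB3120 (AT3G14900) at a difference of 0.029, followed by AT1G52330 (0.035) and PGR5-LIKE A (AT4G22890, 0.046). All share with SHR a highest value in Col-0 replicate 3. Closest to SCR were AT5G57100 (0.027), AT2G31820 (0.033) and AT1G11592 (0.034), each lowest in the library labelled rap2.12-2 replicate 1. Closest to JKD were AT1G02260 (0.067), AT2G02780 (0.071) and HSFA3 (AT5G03720, 0.086).

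Some regulators of suberin lay below the limit for testing. MYB107 was listed at 1.64, 2.85 and 0.50 TPM across Col-0, against 0.12, 0.57 and 0 TPM under the rap2.12-2 label. MYB9, MYB41, MYB53 and MYB39 stayed at 1.24 TPM or less in every library, so of the MYB factors in the suberin list MYB92 and MYB93 were the 2 that were tested, and MYB93 measured 0.64 to 2.68 TPM.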
